A study of Xenopus laevis with 14 samples.

Results

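Secreted and membrane proteins enter the endoplasmic reticulum (ER) as they are made. The signal recognition particle brings the ribosome to the Sec61 channel, signal peptidase removes the signal peptide, and chaperones and protein disulfide isomerases fold the chain. COPII-coated vesicles then carry cargo to the Golgi, and COPI-coated vesicles and KDEL receptors return proteins that belong in the ER. The p24 receptors collect cargo in both coats. In the skin of the frog embryo, which animal cap ectoderm forms when left untreated, goblet cells and small secretory cells release mucus and other products through this route.

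The genes described here were taken by symbol, ignoring case. Their names begin with pdia, erp, calr, canx, spcs, kdelr or tmed, with sec or ssr and a digit, or with srp and a digit or r. Others begin with cop and the letter a, b, g or z, or are hspa5 and hsp90b1. The rule found 69 genes among the 19921 gene lines of the deposited table, and used no measured value. They carry 68 distinct symbols when case is ignored, because SEC16A and sec16a are separate lines. Of the 69, 66 had a mean of at least 10 normalized reads over the 10 libraries and were tested. ERP27, copz2 and tmed6 were below that level and were not tested. By role there are 7 disulfide isomerase relatives, 5 chaperones, 6 genes of the signal recognition particle and its receptor, 5 translocon genes, 4 TRAP subunits and 5 signal peptidase genes. The rest are 12 COPII genes, 7 COPI subunits, 9 p24 receptors, 3 KDEL receptors and 6 other genes, which are sec14-like or sec22 genes.

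The tissue was Xenopus laevis animal cap ectoderm, and its RNA was read in 5 groups of 2 libraries. Caps of 4 groups came from embryos injected with RNA for noggin, an inhibitor of bone morphogenetic proteins that turns cap ectoderm into neural tissue, and were treated with retinoic acid (RA), which gives that tissue a posterior character. In 3 of these groups the embryos also received RNA for prdm12_VP16, by its name a fusion of the transcriptional regulator prdm12 to the VP16 activation domain, for prdm12_engR, by its name a fusion to the engrailed repressor domain, or for prdm12 itself. The noggin-RA caps received noggin and RA alone, and the untreated caps, labelled wt, received none of these. Caps were dissected near the start of gastrulation and then cultured. A cap is a mixture of cells, and each library is bulk polyadenylated RNA. The labels do not say whether the 2 libraries of a group came from separate clutches, so the p-values measure the spread between these libraries, which may be technical.

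The libraries held 11986697 to 15893668 reads on genes. Levels below are normalized reads, that is, reads on a gene divided by 1 factor per library, so that 1 read was worth 0.813 to 1.32 units. The identifiers are those of Xenopus tropicalis genes, so the duplicated gene copies of Xenopus laevis have no lines of their own. Whether a line counts the reads of both copies was not tested. Levels are not compared between genes because no transcript length is given. The prdm12 line itself had 379 and 250.3 normalized reads in VP16 caps, 262 and 160 in engR caps, 160 and 209 in prdm12 caps, 29.3 and 77.8 in noggin-RA caps, and 9.26 and 1.09 in untreated caps. The column headings of the prdm12 caps begin with mPrdm12. Whether this line counts the injected RNA, the embryo's own transcript or both was not tested, so its levels are no measure of construct dose. One engR library, replicate 1, carries a treatment label that names the VP16 fusion, while its title and its column heading name engR. It was kept with engR. Each named gene's call in the main fit, which has no replicate block, is also given without it where engR caps are involved. The counts of cell type markers that passed in comparisons with engR caps are not given without it.

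The 69 genes together took 1.65% and 1.76% of all gene reads in noggin-RA caps, against 2.32% and 2.27% in untreated caps. They took 1.66% and 1.75% in VP16 caps, 1.82% and 1.96% in engR caps, and 1.96% and 1.89% in prdm12 caps. At this depth counting error is small: the exact Clopper-Pearson interval at 95% for noggin-RA replicate 1 was 1.64 to 1.66%. Both untreated libraries were above the 8 neuralized libraries, and both prdm12 and both engR libraries were above both noggin-RA libraries.

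**Figure D1:**
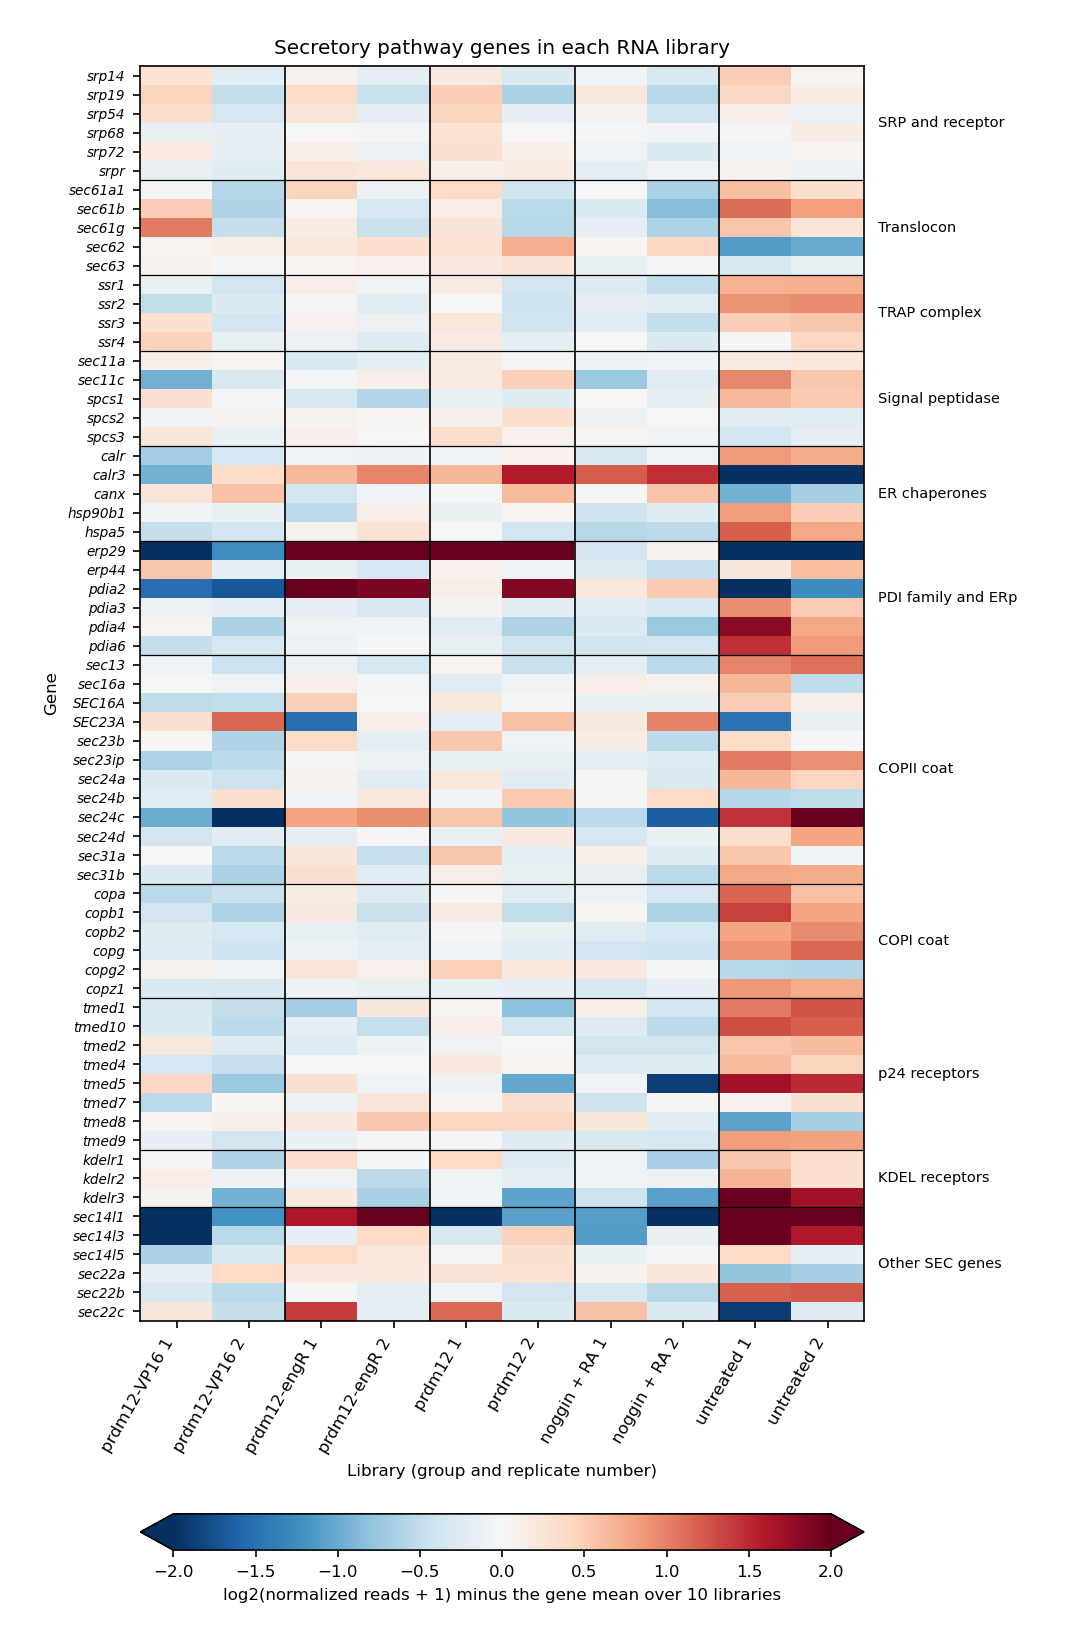
Each row is 1 of the 66 tested genes, ordered by role, and each column is 1 of the 10 libraries. Colour gives log2(normalized reads + 1) minus the gene's mean over the 10 libraries, in log2 units and clipped at 2 in either direction. The untreated columns stand apart in most roles outside the signal recognition particle, and erp29 is high in the prdm12 and engR columns.

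In noggin-RA caps against untreated caps, 33 of the 66 genes fell and 7 rose, so that 40 passed the test (60.6%). Of all 12937 genes tested, 43.7% passed, 22.3% higher and 21.4% lower. The share of the secretory pathway genes that fell was therefore above the share over all genes, and the share that rose was below it. Their median log2 fold change was -0.78, against 0.02 over all genes. After quantile normalization it was -0.54, against 0.05 over all genes. Both noggin-RA libraries were below both untreated libraries in 43 of the 66 (65.2%), against 35.3% over all genes, and above both in 13 (19.7%), against 36.4%. Every test is limma on log2(normalized reads + 1) with Benjamini-Hochberg adjustment over all genes tested, a fold change is on that scale, ± gives its standard error, and each group has n = 2 libraries. The 7 that rose are erp29, calr3, sec62, canx, sec22a, pdia2 and copg2. Fitted with the replicate number as a block, 51 genes passed, 41 lower and 10 higher, against 58.3% over all genes. The number that passed was 25 without untreated replicate 1, and also 25 without noggin-RA replicate 2.

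Of the 6 signal recognition particle genes, none passed the limma test, against 43.7% over all genes. None of them had an unadjusted p under 0.05, and edgeR called 0. srp14, a subunit that slows the ribosome, had 936 and 774 normalized reads in noggin-RA caps, against 1369.7 and 1006 in untreated caps (log2 fold change -0.46 ± 0.28, adjusted p = 0.223; 0.0246 with the replicate block). srp19 had 675 and 394 in noggin-RA caps, against 778 and 647 in untreated caps, and the groups overlapped (adjusted p = 0.495). The receptor subunit srpr, with srp54, srp68 and srp72, had log2 fold changes between -0.16 and -0.09. The role's 6 fold changes ranged from -0.46 to -0.09.

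At the channel, 1 of 5 translocon genes rose and 1 fell (20% each). These shares are near those over all genes, 22.3% higher and 21.4% lower. sec62, a channel partner used by short secretory proteins, had 1741 and 2249 normalized reads in noggin-RA caps, against 781 and 841 in untreated caps, a log2 fold change of 1.29 ± 0.22 (adjusted p = 0.00191). sec61b, the small beta subunit, had 4034 and 2695 in noggin-RA caps, against 10525 and 8608 in untreated caps, and fell by 1.53 ± 0.40 (adjusted p = 0.0149). In both genes the groups did not overlap, and they lay in opposite order. The pore subunit sec61a1 had 9289.7 and 5932 in noggin-RA caps, against 13940.5 and 11449 in untreated caps (adjusted p = 0.118; 0.00242 with the block). sec61g had an adjusted p of 0.24 (0.037 with the block), and sec63 one of 0.547.

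The translocon-associated protein (TRAP) complex, which helps some signal sequences open the channel, had 3 of 4 subunits lower, against 21.4% over all genes. ssr2 had 2833 and 2755 normalized reads in noggin-RA caps, against 6032 and 6178 in untreated caps, and fell by 1.13 ± 0.20 on the log2 scale (adjusted p = 0.00252). ssr1 had 4832 and 4116 in noggin-RA caps, against 9369.5 and 9571 in untreated caps, and fell by 1.09 ± 0.23 (adjusted p = 0.00491). Both subunits were at less in each noggin-RA library than in either untreated library. ssr3 had 3142 and 2622 in noggin-RA caps, against 5222 and 5389 in untreated caps, and fell by 0.89 ± 0.29 (adjusted p = 0.0365; 0.067 by edgeR). ssr4 overlapped between the groups (adjusted p = 0.363).

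Signal peptidase cleaves signal peptides, and 2 of its 5 genes fell, against 21.4% over all genes. The catalytic subunit gene sec11c had 645 and 924 normalized reads in noggin-RA caps, against 2095 and 1567 in untreated caps, and fell by 1.23 ± 0.30 (adjusted p = 0.0107). Its paralog sec11a had 1059 and 1096 in noggin-RA caps, against 1265 and 1326 in untreated caps (adjusted p = 0.275). So the catalytic paralog that passed had the wider gap between groups. spcs1, an accessory subunit, had 754 and 678 in noggin-RA caps, against 1187 and 1098 in untreated caps, and fell by 0.67 ± 0.22 (adjusted p = 0.0341; 0.0636 by edgeR). spcs2 and spcs3 had adjusted p-values of 0.556 and 0.385.

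All 5 ER chaperone genes passed, 3 lower and 2 higher, against 21.4% lower and 22.3% higher over all genes. hspa5 encodes BiP, the Hsp70 chaperone of the ER lumen. It had 19965 and 20495 normalized reads in noggin-RA caps, against 67392 and 50319.7 in untreated caps, and fell by 1.53 ± 0.22 on the log2 scale (adjusted p = 0.000768). hsp90b1, the ER member of the Hsp90 family, had 21799.8 and 24562 in noggin-RA caps, against 51539 and 40806 in untreated caps, and fell by 0.99 ± 0.25 (adjusted p = 0.0133; 0.222 after quantile normalization). In both, the lower untreated library was above the higher noggin-RA library. The lectin chaperones calreticulin and calnexin bind the same monoglucosylated glycans, one in the lumen and one in the membrane, and they moved in opposite directions. calr had 22458 and 26548 in noggin-RA caps, against 50615 and 46521 in untreated caps, and fell by 0.99 ± 0.20 (adjusted p = 0.00445; 0.209 after quantile normalization). canx had 20899 and 30676 in noggin-RA caps, against 10717 and 12929 in untreated caps, a log2 fold change of 1.10 ± 0.30 (adjusted p = 0.0173). calr3, a calreticulin paralog known from the testis of mammals, had 34.1 and 41.0 in noggin-RA caps, against 2.65 and 0 in untreated caps (4.33 ± 0.74, adjusted p = 0.00189). These are 91 reads against 2, a ratio of 31.3 per normalized read (exact interval 8.43 to 263, counting error only).

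**Figure D2:**
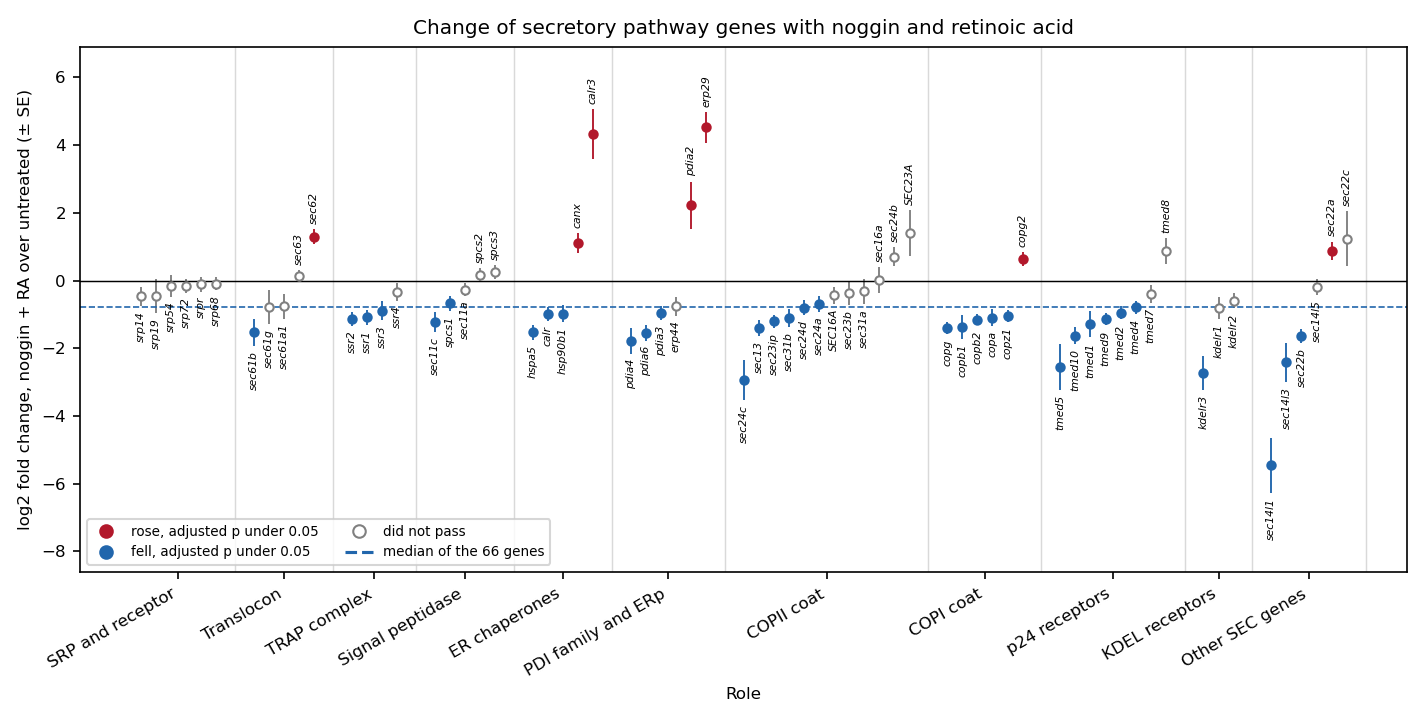
Each point is 1 of the 66 tested genes, grouped by role along the x axis. The y axis is the log2 fold change in noggin-RA caps over untreated caps with its standard error, filled points passed the limma test, and the dashed line is the median of the 66 at -0.78. Among the coats, p24 receptors and TRAP subunits most filled points lie below 0, and erp29 and calr3 lie highest.

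Among protein disulfide isomerases and their relatives, 3 of 6 tested genes fell and 2 rose, against 21.4% and 22.3% over all genes. pdia6 had 5042 and 5080.5 normalized reads in noggin-RA caps, against 18248 and 12023 in untreated caps, and fell by 1.55 ± 0.23 (adjusted p = 0.000816). pdia4 had 1807 and 1324 in noggin-RA caps, against 7666 and 3755 in untreated caps, and fell by 1.79 ± 0.38 (adjusted p = 0.00525). pdia3, which works with the lectin chaperones on glycoproteins, had 7337 and 6837 in noggin-RA caps, against 16062 and 11976 in untreated caps, and fell by 0.97 ± 0.21 (adjusted p = 0.00581). In all 3 the untreated libraries lay above the noggin-RA ones, and untreated replicate 1 was the higher of its group. erp44, which retrieves folding enzymes from the early Golgi, had 2796 and 2384 in noggin-RA caps, against 3852 and 4991 in untreated caps (adjusted p = 0.0513; 0.0231 with the block). pdia2, a disulfide isomerase known from the pancreas of mammals, had 13.8 and 17.6 in noggin-RA caps, against 1.32 and 4.38 in untreated caps, a log2 fold change of 2.23 ± 0.69 (adjusted p = 0.0309; 0.158 after quantile normalization). erp29, a relative that lacks the catalytic motif of the family, had 18.7 and 25.9 in noggin-RA caps, against 0 and 0 in untreated caps (4.53 ± 0.46, adjusted p = 0.000126). Its 54 reads against 0 make it at least 12.4-fold higher, with a floor of 3 reads over the untreated group. The line is that of a Xenopus tropicalis gene, and whether it counts all erp29 transcripts of Xenopus laevis was not tested.

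Of the 12 COPII genes, 6 fell and none rose, against 21.4% lower and 22.3% higher over all genes. sec24c, one of 4 cargo-binding paralogs of the inner coat, had 178 and 81.2 normalized reads in noggin-RA caps, against 699 and 1217 in untreated caps, and fell by 2.93 ± 0.59 (adjusted p = 0.00416). The outer-cage genes sec13 and sec31b fell by 1.40 ± 0.24 (adjusted p = 0.00205) and 1.11 ± 0.26 (adjusted p = 0.00908). sec13 had 1736 and 1388 in noggin-RA caps, against 3917 and 4279 in untreated caps, and sec31b had 1202 and 912 in noggin-RA caps, against 2269.6 and 2239 in untreated caps. None of these 3 overlapped between the groups. sec23ip, which binds the inner coat, had 513 and 494 in noggin-RA caps, against 1216 and 1119 in untreated caps, and fell by 1.21 ± 0.19 (adjusted p = 0.00133). The paralogs sec24d and sec24a fell by 0.81 and 0.68 (adjusted p = 0.0182 and 0.0468), and sec24a did not pass by edgeR (0.0919). sec24b had 985 and 1315 in noggin-RA caps, against 683 and 713 in untreated caps (0.70 ± 0.29, adjusted p = 0.0815; 0.00822 with the block). SEC23A had 132 and 231 in noggin-RA caps, against 41.0 and 104 in untreated caps (adjusted p = 0.131; 0.00377 with the block), and its paralog sec23b had a log2 fold change of -0.36 ± 0.36 (adjusted p = 0.46; 0.0383 with the block). SEC16A, sec16a and sec31a had adjusted p-values of 0.177, 0.977 and 0.524.

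All 6 tested COPI subunits taken by the symbol rule passed, 5 lower and 1 higher, against 21.4% lower and 22.3% higher over all genes. copg, a gamma subunit, had 3864 and 3736 normalized reads in noggin-RA caps, against 9246 and 11014 in untreated caps, and fell by 1.41 ± 0.18 (adjusted p = 0.000347). Its paralog copg2 had 1142 and 981 in noggin-RA caps, against 687 and 669.7 in untreated caps, a log2 fold change of 0.64 ± 0.20 (adjusted p = 0.0311). The alternative gamma subunits of the same coat therefore lay in opposite order between the groups. copb2 had 6138 and 5670.2 in noggin-RA caps, against 12497 and 13894 in untreated caps (fell by 1.16 ± 0.17, adjusted p = 0.00076). copz1 had 1413 and 1579 in noggin-RA caps, against 3234 and 2949 in untreated caps (fell by 1.05 ± 0.17, adjusted p = 0.00149). The groups were apart in both. copa had 5344 and 4592 in noggin-RA caps, against 13021 and 8679 in untreated caps (fell by 1.10 ± 0.25, adjusted p = 0.00761), and copb1 fell by 1.37 ± 0.35 (adjusted p = 0.0136).

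Of the 8 p24 receptors tested, which collect cargo in both coats, 6 fell and none rose, against 21.4% and 22.3% over all genes. tmed10 had 497 and 412 normalized reads in noggin-RA caps, against 1454 and 1355 in untreated caps, and fell by 1.63 ± 0.25 (adjusted p = 0.00109). tmed9 had 1411 and 1376 in noggin-RA caps, against 3111 and 3063 in untreated caps, and fell by 1.15 ± 0.18 (adjusted p = 0.00122). The libraries of each group lay close to each other in both genes. tmed2 had 4802 and 4822 in noggin-RA caps, against 9076 and 9519.7 in untreated caps (fell by 0.95 ± 0.20, adjusted p = 0.005). tmed4 had 958 and 967 in noggin-RA caps, against 1787 and 1558 in untreated caps (fell by 0.79 ± 0.18, adjusted p = 0.00821). tmed5 and tmed1 fell by 2.55 ± 0.67 and 1.28 ± 0.40 (adjusted p = 0.0152 and 0.0303). tmed7 and tmed8 had log2 fold changes of -0.39 and 0.88 (adjusted p = 0.281 and 0.093), and both passed with the block (0.0439 and 0.0469).

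KDEL receptors return lumenal chaperones such as BiP to the ER, and 1 of the 3 fell, against 21.4% over all genes. kdelr3 had 298 and 187 normalized reads in noggin-RA caps, against 1939 and 1277 in untreated caps, and fell by 2.73 ± 0.51 (adjusted p = 0.00289). kdelr2 had 1269 and 1229.8 in noggin-RA caps, against 2133 and 1666 in untreated caps (adjusted p = 0.0662; 0.0109 with the block). kdelr1 had 2384 and 1621 in noggin-RA caps, against 3703 and 3198 in untreated caps (adjusted p = 0.0766; 0.0024 with the block). All 3 receptors had both noggin-RA libraries below both untreated libraries, an order found in 35.3% of all genes.

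The sec22 and sec14-like genes completed the set, with 3 of 6 lower and 1 higher, against 21.4% and 22.3% over all genes. sec22b, a SNARE of ER-to-Golgi vesicles, had 949.6 and 807 normalized reads in noggin-RA caps, against 2688 and 2778 in untreated caps, and fell by 1.64 ± 0.21 (adjusted p = 0.000409). sec22a had 281 and 314 in noggin-RA caps, against 154 and 167 in untreated caps, a log2 fold change of 0.89 ± 0.27 (adjusted p = 0.0268). These relatives again lay in opposite order. sec14l1, a gene of the Sec14-like lipid-binding family, had 3.25 and 0.840 in noggin-RA caps, against 91.3 and 163 in untreated caps, and fell by 5.46 ± 0.82 (adjusted p = 0.000933). sec14l3 had 153 and 305 in noggin-RA caps, against 1325 and 1015 in untreated caps, and fell by 2.42 ± 0.58 (adjusted p = 0.00965). sec14l5 and sec22c overlapped between the groups (adjusted p = 0.568 and 0.261).

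How firm these calls were differed between genes. Leaving out single libraries ended 18 of the 40 calls at least once, and none changed sign under median ratio scaling, quantile normalization or edgeR. Without untreated replicate 1 or without noggin-RA replicate 2, canx, copa, copb1 and sec61b did not pass, with adjusted p-values up to 0.121, 0.0541, 0.0969 and 0.0941. Without untreated replicate 1 or without noggin-RA replicate 1, hsp90b1, sec11c and sec14l3 did not pass (up to 0.0843, 0.0745 and 0.0646). copg2 and sec22a were lost without any 1 of the 4 libraries compared (up to 0.174 and 0.138), and sec24a, spcs1 and ssr3 without these or others (up to 0.242, 0.170 and 0.169). pdia2, tmed1, tmed5 and sec24d were each lost without 3 of the 4 libraries compared (up to 0.165, 0.160, 0.0978 and 0.104). sec31b and tmed4 were lost only without noggin-RA replicate 2 (0.0709 and 0.0502). The calls of hspa5, erp29, calr3, pdia3, pdia4, pdia6, copg, copb2, copz1, sec13, sec23ip, sec24c, tmed10, tmed9, tmed2, kdelr3, sec22b, sec14l1, sec62, ssr1 and ssr2 were kept without each of the 10 libraries in turn, and so was that of calr.

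A further 6 lists, chosen by function, covered the rest of the pathway, and each had more genes lower than higher. Their counts are read against all genes, of which 43.7% passed, 22.3% higher and 21.4% lower. The 2 of 10 lower among further insertion genes are near that background. In all 5 of 15 regulators, 7 of 23 degradation genes and 3 of 10 insertion genes passed, shares below that of all genes, and these differences were not tested. Of 15 regulators of the unfolded protein response, the signalling route that raises chaperone genes when folding is overloaded, 5 fell and none rose. creb3l4, a membrane-bound transcription factor, had 0.810 and 0.840 normalized reads in noggin-RA caps, against 364 and 281 in untreated caps (fell by 7.46 ± 0.65, adjusted p = 5.92e-05). ern2, a stress sensor known from mucus-making epithelia of mammals, had 66.7 and 80.3 in noggin-RA caps, against 705 and 526 in untreated caps (fell by 3.04 ± 0.45, adjusted p = 0.000824). Both libraries of noggin-RA caps were far below the untreated ones for creb3l4 and ern2. atf4, a factor of the stress response, had 6315 and 4022 in noggin-RA caps, against 19853 and 11498 in untreated caps (fell by 1.58 ± 0.38, adjusted p = 0.00982; up to 0.076 without untreated replicate 1 or noggin-RA replicate 2).

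Of 30 other folding factors and partners of BiP, 13 fell and 3 rose. p4hb, the founding protein disulfide isomerase, had 12052 and 8402 normalized reads in noggin-RA caps, against 69372 and 61274 in untreated caps (fell by 2.70 ± 0.33, adjusted p = 0.000303). sdf2l1, a partner of BiP, had 999 and 881 in noggin-RA caps, against 4162 and 4862 in untreated caps (fell by 2.26 ± 0.25, adjusted p = 0.000177). ero1l, which reoxidises disulfide isomerases, had 202 and 236 in noggin-RA caps, against 781 and 826 in untreated caps (fell by 1.88 ± 0.22, adjusted p = 0.000237). The groups were apart in all 3. Of 23 genes of ER-associated degradation, 7 fell and none rose, with derl2, derl1 and ube2g2 lower by 1.09, 0.96 and 1.01 (adjusted p = 0.00188, 0.00493 and 0.00818). The call of ube2g2 was lost without noggin-RA replicate 1 (0.0623).

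Of 27 genes of N-glycan assembly and transfer, 10 fell and 2 rose. alg5 fell by 1.43 ± 0.20 (adjusted p = 0.000711). The 2 that rose are an oxidoreductase subunit of the transferase, tusc3, with 183 and 326 normalized reads in noggin-RA caps, against 18.5 and 14.2 in untreated caps, and ALG13, with 16.3 and 15.9 in noggin-RA caps, against 0 and 0 in untreated caps. Of 38 further ER-to-Golgi trafficking genes, 14 fell and 3 rose. Their list was drawn up with the coat genes arcn1, cope, sar1a and sar1b, which the symbol rule does not take. The coat-recruiting GTPase arf1 had 3662 and 4083 in noggin-RA caps, against 11838 and 12186 in untreated caps (fell by 1.63 ± 0.18, adjusted p = 0.000159). tfg and arf4 fell by 1.93 and 1.34 (adjusted p = 0.000175 and 0.000712). Of 10 further insertion genes, tram1 and sgta fell by 1.20 and 0.78 and wrb had a log2 fold change of 1.31 (adjusted p = 0.00396, 0.0235 and 0.0113). The call of sgta was lost without untreated replicate 1 or noggin-RA replicate 2 (up to 0.153), and that of wrb without untreated replicate 1 or noggin-RA replicate 1 (up to 0.0752).

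**Figure D3:**
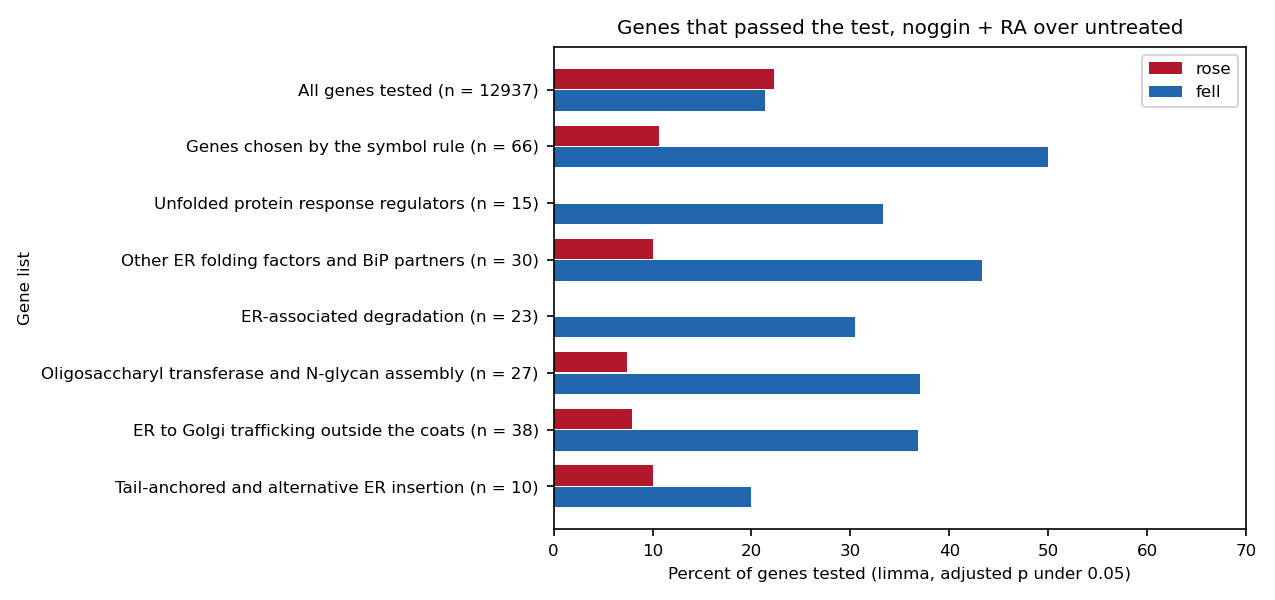
Bars give the percent of tested genes that rose (red) or fell (blue) in noggin-RA caps over untreated caps, by limma with adjusted p under 0.05, for all 12937 genes, the 66 genes taken by symbol and the 6 further lists. Among the 66 genes 33 fell and 7 rose, while over all genes 21.4% fell and 22.3% rose.

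Levels of 6 lists of cell type markers were read in the same comparison. Their counts are again read against all genes, 22.3% higher and 21.4% lower. The summed level of 24 mucus and goblet cell lines was 2726 to 3361 normalized reads in noggin-RA caps, against 249492 to 271583 in untreated caps. Of the 14 tested, 11 fell and 2 rose. muc2, tff1, OTOG and tff2 were at 0 in both groups, with 1 pnliprp2 line at 0 in noggin-RA caps and muc5b at 0 in untreated caps. The 17 lines of small secretory cells and ionocytes summed to 8931 to 10449.5 in noggin-RA caps, against 45558 to 66766 in untreated caps, with 11 of 16 tested lower, 2 higher and slc6a4 at 0 in both. The 25 epidermis lines summed to 24912 to 34290.4 in noggin-RA caps, against 662483 to 782273 in untreated caps, with 23 of 24 tested lower, 1 higher and none at 0. The 22 neural lines summed to 100775 to 136360 in noggin-RA caps, against 3197 to 4199 in untreated caps, with 20 of 21 tested higher. The 17 multiciliated cell lines summed to 16069.6 to 19270.5 in noggin-RA caps, against 18369 to 31654 in untreated caps. These sums overlapped, and of the 16 tested 5 fell and 3 rose. The 15 notochord, floor plate, cement and hatching gland lines summed to 13235 to 19402.5 in noggin-RA caps, against 11519 to 20329.5 in untreated caps. Of the 10 tested, 4 fell and 5 rose, with admp and CTSK at 0 in both groups and shh and astl at 0 in untreated caps. Reads not unique to 1 gene were 26.4 to 27.7% of the counted signal in noggin-RA caps, against 34.3 to 44.0% in untreated caps, and the 10 highest genes took 8.82 to 9.34% of gene reads in noggin-RA caps, against 15.8 to 16.9% in untreated caps. The part of these cell types and library properties in the secretory pathway result was not tested, and in bulk RNA fewer cells of a type and less RNA per cell cannot be told apart.

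Between prdm12 caps and noggin-RA caps, 1 of the 66 genes passed, against 0.162% (21 genes) over all genes, 0.147% higher and 0.0155% lower, and it was erp29. With the replicate block it was again 1, against 0.935%. Comparisons with noggin-RA caps share those libraries. erp29 (ENSXETG00000004300, protein coding, positions 409079 to 416954 of scaffold GL173202.1) had 4.61 and 9.82 normalized reads in VP16 caps, 229 and 234 in engR caps, 241 and 300.7 in prdm12 caps, 18.7 and 25.9 in noggin-RA caps, and 0 and 0 in untreated caps. Both prdm12 and both engR libraries were above all other libraries, and both VP16 libraries were below both noggin-RA libraries. The log2 fold change was 3.55 ± 0.46 in prdm12 caps over noggin-RA caps (adjusted p = 0.0343), and it was the same sign in all 18 alternatives (3.33 to 3.78). The call was kept in 8 of the 18, with adjusted p-values from 0.0118 to 0.322. It was lost with a pseudocount of 0.25, without the filter on low values, and without any 1 library of the untreated, noggin-RA, prdm12 or engR caps.

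In engR caps over noggin-RA caps, erp29 was again the only 1 of the 66 that passed, against 3.43% over all genes, 2.41% higher and 1.02% lower (3.34 ± 0.46, adjusted p = 0.0127; 0.00359 to 0.122 over 18 alternatives). Without engR replicate 1 its log2 fold change was 3.35 with an adjusted p of 0.0926, and the call was also lost without engR replicate 2 or either noggin-RA library. The difference between engR and prdm12 caps was -0.22 on the log2 scale, with a 95% interval of -1.28 to 0.85 (adjusted p = 1.00). In VP16 caps over noggin-RA caps it was -1.56 ± 0.46 (adjusted p = 0.540). erp29 fell by 5.12 ± 0.46 in VP16 caps against prdm12 caps (adjusted p = 0.00305) and by 4.90 ± 0.46 in VP16 caps against engR caps (adjusted p = 0.00137). Both of these calls were kept in 18 of 18 alternatives, with adjusted p-values up to 0.0294 and 0.0230, and without engR replicate 1 the second was -4.91 (adjusted p = 0.0187).

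The annotated genes on either side of erp29 were then read, chosen after the values of erp29 were seen. TMEM116, 46602 bases away with no annotated gene between, had 102 and 216 normalized reads in VP16 caps, 513 and 496 in engR caps, 572 and 662 in prdm12 caps, 71.6 and 110.4 in noggin-RA caps, and 27.8 and 17.5 in untreated caps. As with erp29, its prdm12 and engR libraries were above all the others, and its untreated libraries were lowest. It passed in noggin-RA caps over untreated caps (1.96 ± 0.43, adjusted p = 0.00632) and in engR caps over noggin-RA caps (2.49 ± 0.43, adjusted p = 0.0219). In prdm12 caps over noggin-RA caps its log2 fold change was 2.78 ± 0.43 (adjusted p = 0.0606; 0.0295 with the block). It fell by 2.04 in VP16 caps against prdm12 caps and by 1.75 in VP16 caps against engR caps (adjusted p = 0.0413 and 0.0351). Without engR replicate 1 its engR comparisons did not pass (adjusted p = 0.131 over noggin-RA caps and 0.147 for VP16 caps), and neither did VP16 against prdm12 caps (0.0879). Over 18 alternatives the call of VP16 against prdm12 caps was kept in 7, of VP16 against engR caps in 13, of engR over noggin-RA caps in 14 and of noggin-RA over untreated caps in 18. The first of these was lost by edgeR (0.0554), with no filter, and without any library other than VP16 replicate 2, and the second without VP16 replicate 1 or any engR or prdm12 library. The third was lost without any noggin-RA or engR library. Unlike those of erp29, its VP16 libraries overlapped the noggin-RA ones (0.74 ± 0.43, adjusted p = 0.880). naa25, 9355 bases from erp29 on the other side, had 872 and 730.4 in VP16 caps, 624 and 646 in engR caps, 774 and 656 in prdm12 caps, 789 and 609.9 in noggin-RA caps, and 520.1 and 674 in untreated caps. naa25, mapkapk5, trafd1 and c12orf51, the other genes within 80000 bases, passed in none of the 7 comparisons. With the block mapkapk5 passed in noggin-RA caps over untreated caps (0.0229), and c12orf51 passed in VP16 caps against prdm12 caps (0.024) and against engR caps (0.0247). The kit was not stranded, so reads of overlapping transcripts on opposite strands cannot be told apart.

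**Figure D4:**
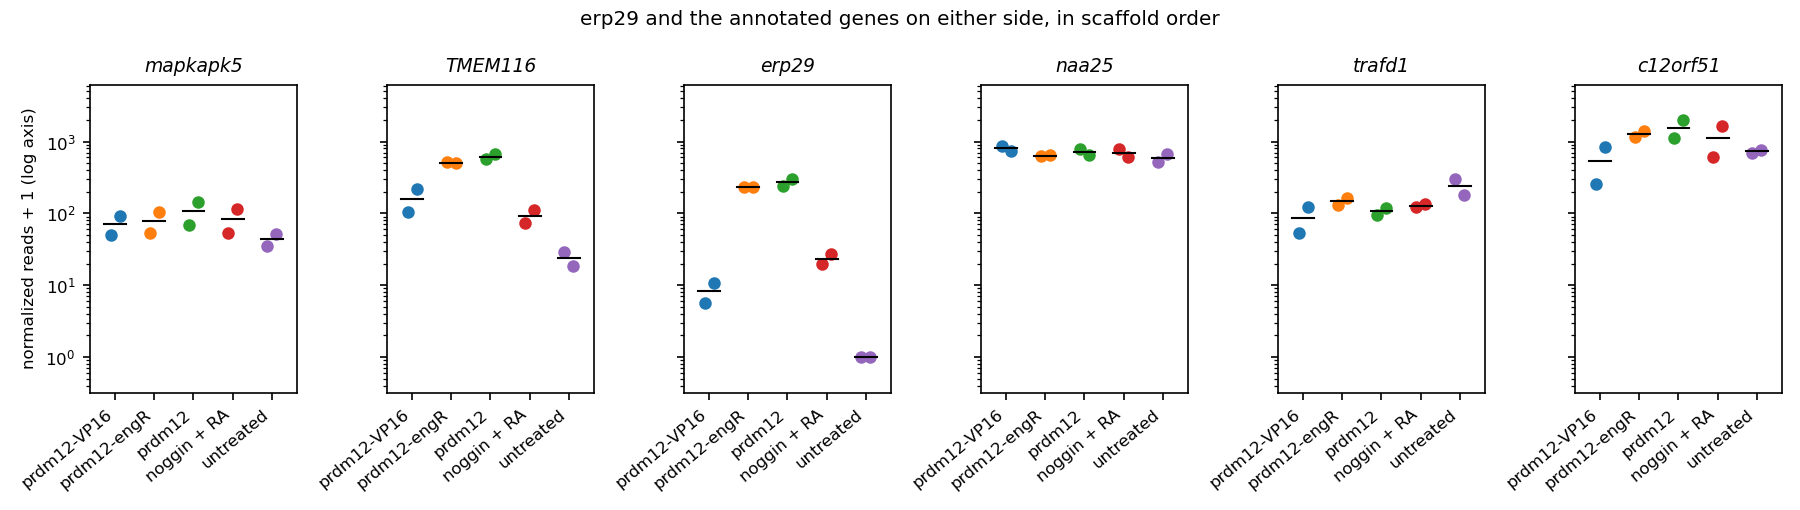
Each panel is 1 annotated gene within 80000 bases of erp29, in scaffold order, with normalized reads + 1 on a log axis. Points are libraries and lines are arithmetic group means, with groups in the order VP16, engR, prdm12, noggin-RA and untreated. erp29 and TMEM116 are highest in prdm12 and engR caps, while naa25 lies between 520.1 and 872 in all 10 libraries.

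Against engR caps, 4 of the 66 genes fell in VP16 caps and none rose, against 12.1% over all genes, 3.42% higher and 8.7% lower, so the share that passed was below the background. Beside erp29 these are pdia2, sec14l1 and sec24c. pdia2 had 3.45 and 2.95 normalized reads in VP16 caps, 65.7 and 46.4 in engR caps, 12.9 and 45.4 in prdm12 caps, 13.8 and 17.6 in noggin-RA caps, and 1.32 and 4.38 in untreated caps. It fell by 3.74 ± 0.69 in VP16 caps against engR caps (adjusted p = 0.0131), and by 2.60 ± 0.69 in VP16 caps against prdm12 caps (adjusted p = 0.0854; 0.0295 with the block). Its prdm12 libraries were further apart than those of any other group.

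sec14l1 had 0 and 2.95 normalized reads in VP16 caps, 27.1 and 37.1 in engR caps, 0.920 and 3.30 in prdm12 caps, 3.25 and 0.840 in noggin-RA caps, and 91.3 and 163 in untreated caps. Both engR libraries were above the other neuralized libraries and below the untreated ones. In VP16 caps against engR caps it fell by 4.04 ± 0.82 (adjusted p = 0.0182), with 3 reads against 62, a ratio of 0.0495 (exact interval 0.00993 to 0.151, counting error only). In engR caps over noggin-RA caps its log2 fold change was 3.55 ± 0.82 (adjusted p = 0.0599; 0.0242 with the block). sec24c had 128 and 60.9 in VP16 caps, 444 and 489 in engR caps, 378 and 149 in prdm12 caps, 178 and 81.2 in noggin-RA caps, and 699 and 1217 in untreated caps. It fell by 2.39 ± 0.59 in VP16 caps against engR caps (adjusted p = 0.0359; 0.0581 by edgeR and 0.0515 after quantile normalization). Without engR replicate 1 only erp29 passed, and pdia2, sec14l1 and sec24c had adjusted p-values of 0.0857, 0.0808 and 0.133. The calls of pdia2 and sec14l1 were also lost without engR replicate 2 or VP16 replicate 1, and that of sec24c without any 1 untreated, engR or VP16 library (up to 0.0857, 0.126 and 0.187).

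With the replicate block, 14 of the 66 passed in VP16 caps against engR caps, against 29.1% over all genes. The 3 higher were canx, spcs1 and SEC23A (adjusted p = 0.0152, 0.021 and 0.00904). The 11 lower were the 4 above with hspa5, sec23ip, sec31b, sec14l3, sec14l5, sec61a1 and SEC16A (adjusted p from 0.0169 to 0.0481 for these 7). In VP16 caps against prdm12 caps erp29 alone passed, against 3.86% over all genes, 0.758% higher and 3.11% lower, and the block added pdia2, tmed4, sec11c and sec23b, all lower (adjusted p = 0.0295, 0.0404, 0.0405 and 0.0329), against 16.4% over all genes.

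**Figure D5:**
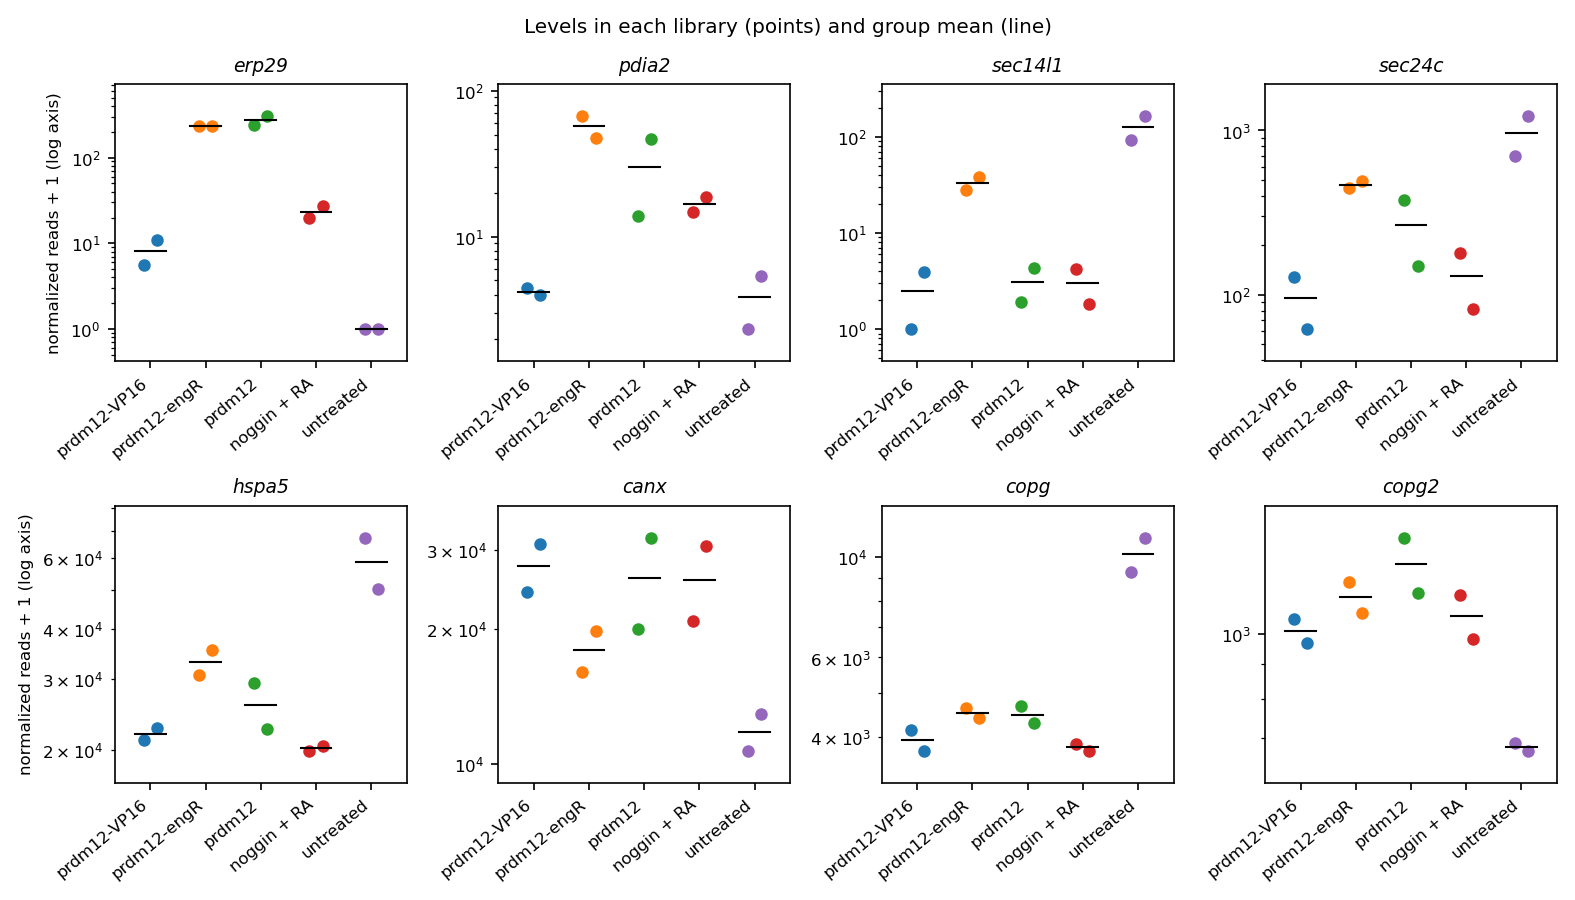
Each panel is 1 gene, with normalized reads + 1 on a log axis whose range differs between panels. Points are libraries and lines are arithmetic group means, in the order VP16, engR, prdm12, noggin-RA and untreated. erp29, pdia2, sec14l1 and sec24c differ between VP16 and engR caps, while canx and copg2 lie in the opposite order from hspa5 and copg between noggin-RA and untreated caps.

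hspa5 had 21177 and 22685 normalized reads in VP16 caps, 30836 and 35555 in engR caps, 29339 and 22564 in prdm12 caps, 19965 and 20495 in noggin-RA caps, and 67392 and 50319.7 in untreated caps. All 8 neuralized libraries were below both untreated libraries, and both engR libraries were above the other 6. In engR caps over noggin-RA caps its log2 fold change was 0.71 ± 0.22 (adjusted p = 0.146; 0.0492 with the block), and 0.81 without engR replicate 1 (adjusted p = 0.295). In prdm12 caps over noggin-RA caps it was 0.35, with a 95% interval of -0.16 to 0.86 (adjusted p = 1.00). In VP16 caps over noggin-RA caps it was 0.12, with an interval of -0.39 to 0.62 (adjusted p = 0.981). In VP16 caps against engR caps it was -0.60 ± 0.22 (adjusted p = 0.127; 0.0459 with the block and 0.0419 after quantile normalization). Beside erp29 and hspa5, the block added sec14l1, higher, and SEC23A, lower (adjusted p = 0.0242 and 0.0284), in engR caps over noggin-RA caps, so that 4 of the 66 passed, against 10.9% over all genes.

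No gene of the 66 passed in VP16 caps over noggin-RA caps or in engR caps over prdm12 caps, where limma called 0% of all genes and edgeR called 0. At an unadjusted p under 0.05 there were 2 of the 66, erp29 and pdia2, and 868 genes in all in VP16 caps over noggin-RA caps. In engR caps over prdm12 caps there were 1 of the 66, sec14l1, and 679 genes in all. With the block none of the 66 passed in either, against 0.34% and 0.1% over all genes.

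The signs of all 66 fold changes, those that passed included, were also counted. The signs over all genes were not counted, and only their median is given. In prdm12 caps over noggin-RA caps, 60 of the 66 log2 fold changes were above 0, with a median of 0.24, against 0.03 over all genes. Both prdm12 libraries were above both noggin-RA libraries in 26 (39.4%), against 17.1% over all genes, and below both in 1 (1.52%), against 13.4%. In engR caps over noggin-RA caps, 55 of the 66 were above 0, with a median of 0.17, against 0.03 over all genes. Both engR libraries were above both noggin-RA libraries in 23 (34.8%), against 25.9% over all genes, and below both in 5 (7.58%), against 20.1%. In VP16 caps over noggin-RA caps 32 of the 66 were above 0, with a median of -0.01, against -0.004 over all genes. Both VP16 libraries were above both noggin-RA libraries in 6 (9.09%), against 14.3% over all genes, and below both in 12 (18.2%), against 15.9%. In engR caps over prdm12 caps 31 were above 0 and 35 below, with a median of -0.05, against -0.01 over all genes. Both engR libraries were above both prdm12 libraries in 10 (15.2%), against 15.7% over all genes, and below both in 13 (19.7%), against 12.8%. In VP16 caps against prdm12 caps, 49 of the 66 were below 0, with a median of -0.20, against -0.01 over all genes. Both VP16 libraries were below both prdm12 libraries in 25 (37.9%), against 23.9% over all genes, and above both in 2 (3.03%), against 19.7%. In VP16 caps against engR caps, 51 of the 66 were below 0, with a median of -0.20, against -0.02 over all genes. Both VP16 libraries were below both engR libraries in 30 (45.5%), against 29.9% over all genes, and above both in 4 (6.06%), against 26%. After quantile normalization the medians kept their signs, and lay at 0.16, 0.09, -0.05, -0.05, -0.15 and -0.11 in the order given, while those over all genes lay at -0.06, -0.13, 0.06, -0.07, 0.14 and 0.20. Of the 66, 9, 18, 36, 34, 47 and 43 were then below 0, against 6, 11, 34, 35, 49 and 51 before. Beside these, the summed epidermis markers were 45888 to 67601 normalized reads in VP16 caps, 38302 to 46690 in engR caps and 30113 to 34445 in prdm12 caps, against 24912 to 34290.4 in noggin-RA caps. In VP16 caps against engR caps, 10 of 24 epidermis markers tested fell and 1 rose, against 8.7% lower and 3.42% higher over all genes. The epidermis sums did not lie in that order. In engR caps over noggin-RA caps 6 of the 24 rose, against 2.41%. Of 16 multiciliated cell markers, 11 rose in VP16 caps against engR caps. Their sums were 21641 to 22025 in VP16 caps and 5432 to 6941 in engR caps. They were 8697 to 9435 in prdm12 caps and 16069.6 to 19270.5 in noggin-RA caps. Over noggin-RA caps, 8 of the 16 fell in engR caps, against 1.02% over all genes, and 0 passed in VP16 caps, against 0%. The summed neural markers were 47316 to 94457 in VP16 caps, 175382 to 181741 in engR caps and 155218 to 192779 in prdm12 caps, against 100775 to 136360 in noggin-RA caps. Of 21 neural markers tested, 5 rose and 5 fell in VP16 caps against engR caps, against 3.42% and 8.7% over all genes. In VP16 caps against prdm12 caps 4 rose and 3 fell, against 0.758% and 3.11%. The summed mucus markers were 1441 to 1865 in VP16 caps, 2998 to 3538 in engR caps and 2989 to 3701 in prdm12 caps, against 2726 to 3361 in noggin-RA caps. Reads not unique to 1 gene were 23.8 to 25.8% in VP16 caps, 34.1 to 34.2% in engR caps and 27.5 to 27.9% in prdm12 caps. The part of these cells and reads in the differences between the neuralized groups was not tested.

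The further lists showed few calls between the neuralized groups. In VP16 caps against engR caps, 2 of 30 folding factors, 1 of 27 N-glycan genes and 2 of 38 trafficking genes passed, against 12.1% over all genes. In engR caps over noggin-RA caps 1 of 30 folding factors passed, against 3.43%. In VP16 caps against prdm12 caps 1 of 38 trafficking genes passed, against 3.86%. These shares were not above those over all genes. None of the 15 regulators of the unfolded protein response and none of the 23 genes of ER-associated degradation passed in any of these 6 comparisons, in which 0% to 12.1% of all genes passed, so that no call in a list of that size is near the background in most of them. qsox1, a sulfhydryl oxidase, had 43.8 and 49.1 normalized reads in VP16 caps, 170.0 and 151 in engR caps, 104 and 124 in prdm12 caps, 50.4 and 58.6 in noggin-RA caps, and 199.8 and 159 in untreated caps. It passed in engR caps over noggin-RA caps (1.54 ± 0.31, adjusted p = 0.0374) and fell by 1.77 ± 0.31 in VP16 caps against engR caps (adjusted p = 0.0104). Its engR libraries were above those of the other neuralized groups. manf, a factor that binds BiP, had 1567 and 1601 in VP16 caps, against 2858 and 3055 in engR caps (fell by 0.90 ± 0.24, adjusted p = 0.0498). tusc3 and arf4 also fell in VP16 caps against engR caps, by 1.82 and 0.78 (adjusted p = 0.0404 and 0.0358). arfgap2, which acts on the COPI coat, had 1459 and 2025 in VP16 caps, against 3237 and 4356 in prdm12 caps and 3385 and 3624 in engR caps. It fell by 1.13 against prdm12 caps and by 1.03 against engR caps (adjusted p = 0.0465 and 0.033). By edgeR manf, tusc3, arf4 and the first arfgap2 comparison did not pass (adjusted p = 0.0849, 0.0532, 0.066 and 0.0636). Without engR replicate 1 neither qsox1 comparison passed (0.194 over noggin-RA caps and 0.0735 for VP16 caps), and in VP16 caps against engR caps manf, tusc3, arf4 and arfgap2 had adjusted p-values of 0.154, 0.132, 0.179 and 0.12. The 7 calls held in 5 to 15 of 18 alternatives.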

How the data were processed

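The deposited table holds a normalized signal per gene for 10 RNA libraries: whole reads divided by 1 factor per library, as the authors' values themselves show. Every value was a whole multiple of its library's step (100% within 0.05 of a read), so reads were recovered. The labels' protocols name a non-stranded Illumina kit. The submitters' processing notes name Bowtie, Bowtie2, edgeR and HOMER; the sources used here give no version and no genome build for them. The table's other number, a length, is another quantity the authors deposited: it equals the span from start to end and was not used. Counter lines that name no gene, 5 in all, were left out (reads not unique to 1 gene were 23.8 to 44.0% and reads in no gene 7.53 to 11.1% of a library's counted signal). Peak lists were not used here. The untreated columns carry a code that names no treatment and were matched by elimination.

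Values entered limma 3.58.1 (R 4.3.3) as log2(value + 1), with an intensity trend and group means over all 10 libraries, for 12937 genes with a mean of at least 10. There were 7 comparisons, two-sided, with Benjamini-Hochberg adjustment and a threshold of 0.05. Refits used a pseudocount of 0.25 or 4, every gene or those with a mean of 50 or more, median ratio scaling, quantile normalization, edgeR 4.0.16 quasi-likelihood with TMM on the recovered reads, the replicate number as a block, and each library left out. Deviations of same-numbered libraries correlated across genes in all 10 group pairs (r = 0.22 to 0.79). The correlation was 0.22 to 0.25 in pairs with the untreated group and 0.51 to 0.79 between neuralized groups. The numbers were therefore used as a block in a refit, while the main fit has group means only and leaves this pairing out. The fits were tested on simulated libraries drawn from the noggin-RA profile, with a fixed spread and no replicate effect. That setting differs from these data, so it does not show how the fits perform on them.

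The genes, roles, lists and tests were chosen with earlier results of these data known. Named were hspa5, erp29, genes that passed in a comparison other than noggin-RA against untreated, and up to 4 genes a role and 3 a list with the smallest p that passed (at least 2 a role); other names were added after their values were seen. Genes with close paralogs, and overlapping genes, are uncertain.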

Additional observations from a re-analysis of the deposited data

How the results depend on the processing

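In noggin-RA caps over untreated caps, 5655 genes and 40 of the 66 passed. No other setting than single left-out libraries moved these counts by over 1.5 times, and quantile normalization ended 8 of the 40 calls (calr, hsp90b1, pdia2, sec24a, sec24d, spcs1, ssr3 and tmed1), edgeR 3 of these (sec24a, spcs1 and ssr3), and no filter that of sec24a. Single libraries left out gave 4089 to 5708 genes and 25 to 40 of the 66. The same ranges were 0 to 33 genes and 0 to 1 of the 66 for prdm12 over noggin-RA caps, 4 to 485 and 0 to 2 for engR over noggin-RA caps, and 0 to 197 and 0 to 0 for VP16 over noggin-RA caps. They were 0 to 0 and 0 to 0 for engR over prdm12 caps, 58 to 858 and 1 to 1 for VP16 over prdm12 caps, and 326 to 1664 and 1 to 4 for VP16 over engR caps. A lone library was assumed to vary like the other groups.

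With a pseudocount of 4, prdm12 over noggin-RA caps gave 45 genes in place of 21, and engR over noggin-RA caps gave 2 of the 66 in place of 1. With a pseudocount of 0.25 or no filter, prdm12 over noggin-RA caps gave 0 of the 66. A mean of at least 50 left 2 of the 66 for VP16 over engR caps, since pdia2 and sec14l1 were not tested there. The replicate block gave 121 genes for prdm12 over noggin-RA caps, 1414 genes and 4 of the 66 for engR over noggin-RA caps, and 44 genes for VP16 over noggin-RA caps. It gave 13 genes for engR over prdm12 caps, 2125 genes and 5 of the 66 for VP16 over prdm12 caps, and 3770 genes and 14 of the 66 for VP16 over engR caps. Beside the blocked values in the report it changed no other call among the 66. Quantile normalization gave 2 genes for VP16 over noggin-RA caps, and there the log2 fold change of hspa5 was -0.0576 in place of 0.12. It moved the median of all genes by -0.15 for engR over noggin-RA caps, by 0.15 for VP16 over prdm12 caps and by 0.22 for VP16 over engR caps. The causes of these shifts were not tested.

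With 2 libraries a group, small differences could not be settled: the fit has 5 residual degrees of freedom. erp29, pdia2, calr3 and sec14l1 rest on few reads in their low groups, so their fold changes depend on the pseudocount. The untreated libraries are 1 treatment state with no noggin and no RA, so both agents cannot be told apart.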
